A study of Homo sapiens with 6 samples.

Results

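The 50 genes described here are interferon stimulated genes, taken by their symbols from a list of classical members of this response. All 50 were found among the 20667 gene symbols measured by RNA-seq in U2932 cells, a human cell line of the activated B-cell-like subtype of diffuse large B-cell lymphoma. Of these, 28 reached 1 FPKM (a level of fragments normalized by transcript length and sequencing depth) in at least 3 of the 6 libraries and were tested together with all other genes passing that filter, 10526 in total. The other 22 stayed below it, and their values are given without a test, except where a fit with fewer libraries or no filter let some of them in.

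The comparison was between cells with silenced ROCK2 (ROCK2 KD, 3 libraries) and cells carrying a scrambled shRNA (Scr shRNA, 3 libraries). ROCK2 is a serine-threonine kinase, and the study asked which genes depend on it in this lymphoma. Both groups were U2932 cells, with no stimulus named in the labels, kept in Iscove's DMEM with serum, infected with lentivirus packaged in 293T cells, and carrying a pLKO.1 vector with puromycin resistance and tGFP. Controls had therefore also been exposed to virus and carried the resistance cassette. Labels number the libraries 1 to 3 in each group and do not state whether the numbers were separate cultures or infections, so that p-values describe the spread between these libraries only. All libraries came from 1 cell line, and the target was silenced by shRNA in a stably infected population.

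Type I, II and III interferons bind separate surface receptors and signal through JAK kinases. Receptors for type I and III interferon lead to a complex that contains STAT2 and IRF9 and binds the interferon-stimulated response element (ISRE). The induced genes include sensors of viral RNA, the transcription factors that sustain the response, and effectors that block viral entry, translation, replication or release.

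Since the ISRE is what many of these genes share, promoter sequence is shown for the members that differed most between libraries. A core of the ISRE, GAAANNGAAA on either strand, was searched in the 250 bases before each start listed in RefSeq (GRCh38.p14). It was found for 21 of the 38 members with a listed promoter (55.3%), against 3.71% of 27305 genes and 3.02% of 35116 promoters. The motif was present in 11 of 23 tested members and in 10 of 15 below the filter. Neighbouring matches can overlap each other, no other motif was searched, and a match is a stretch of letters and not a measured binding site. The 6 tested members that hold the core and had the widest range between replicate numbers are given below 5′ to 3′ on the strand of the gene, with the matches in capitals.
MX1: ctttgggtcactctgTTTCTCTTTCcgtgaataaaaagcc
ISG15: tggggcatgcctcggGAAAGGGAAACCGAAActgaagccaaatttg
IFITM1: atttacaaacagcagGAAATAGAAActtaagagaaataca
IFI6: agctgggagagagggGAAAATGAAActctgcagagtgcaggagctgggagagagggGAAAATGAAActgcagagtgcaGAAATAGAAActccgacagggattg
PARP14: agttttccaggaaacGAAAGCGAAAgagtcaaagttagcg
BST2: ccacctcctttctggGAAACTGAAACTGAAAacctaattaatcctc
These stretches lie at chr21:41431839-41431878 (plus strand, MX1), chr1:1013369-1013414 (plus strand, ISG15), chr11:313985-314024 (plus strand, IFITM1), chr1:27672261-27672363 (minus strand, IFI6), chr3:122680795-122680834 (plus strand, PARP14) and chr19:17405730-17405775 (minus strand, BST2). The MX1 match is at 1 of its 3 listed starts and on the opposite strand. ISG15 and BST2 each hold 2 overlapping matches, and IFI6 holds 3.

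Several properties of the libraries bear on the values. FPKM summed to 208289 and 217309 in the replicate 1 libraries but to between 438262 and 480612 in the others, and values were therefore divided by a scaling factor per library (0.759 and 0.761 in replicate 1, 1.11 to 1.18 in replicates 2 and 3). Levels below are these scaled FPKM, and differences are on the log2(scaled FPKM + 1) scale, which understates changes of low genes. Total depth is not contained in FPKM, but the steps between low values gave relative depths from 72.2% to 100% of the deepest library. Markers of B cells were detected (6 of 7 above 1 in all libraries), with a summed level of 618 to 1341 in ROCK2 KD and 443 to 1354 in Scr shRNA, lowest in replicate 1 of either group. All 4 T-cell and all 4 myeloid markers were below 1 in every library, with MPO listed at 0, and of 4 epithelial or fibroblast markers only EPCAM was above 1.

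ROCK2 itself measured 3.62, 4.56 and 1.12 in ROCK2 KD replicates 1 to 3 and 5.69, 6.10 and 5.20 in Scr shRNA. Every knockdown library was lower than every control, and the third was far lower than the other two. The difference was -0.81 (SE 0.23), which did not pass across all genes (adjusted p = 0.789, limma with replicate number as a block and Benjamini-Hochberg adjustment). Within the pairs of equal number the differences were -0.54, -0.35 and -1.55. ROCK2 KD replicate 3 also differed from its pair in CD22 (25.9 against 76.9), a surface protein of B cells. The part these differences have in the results for that pair was not tested.

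**Figure D1:**
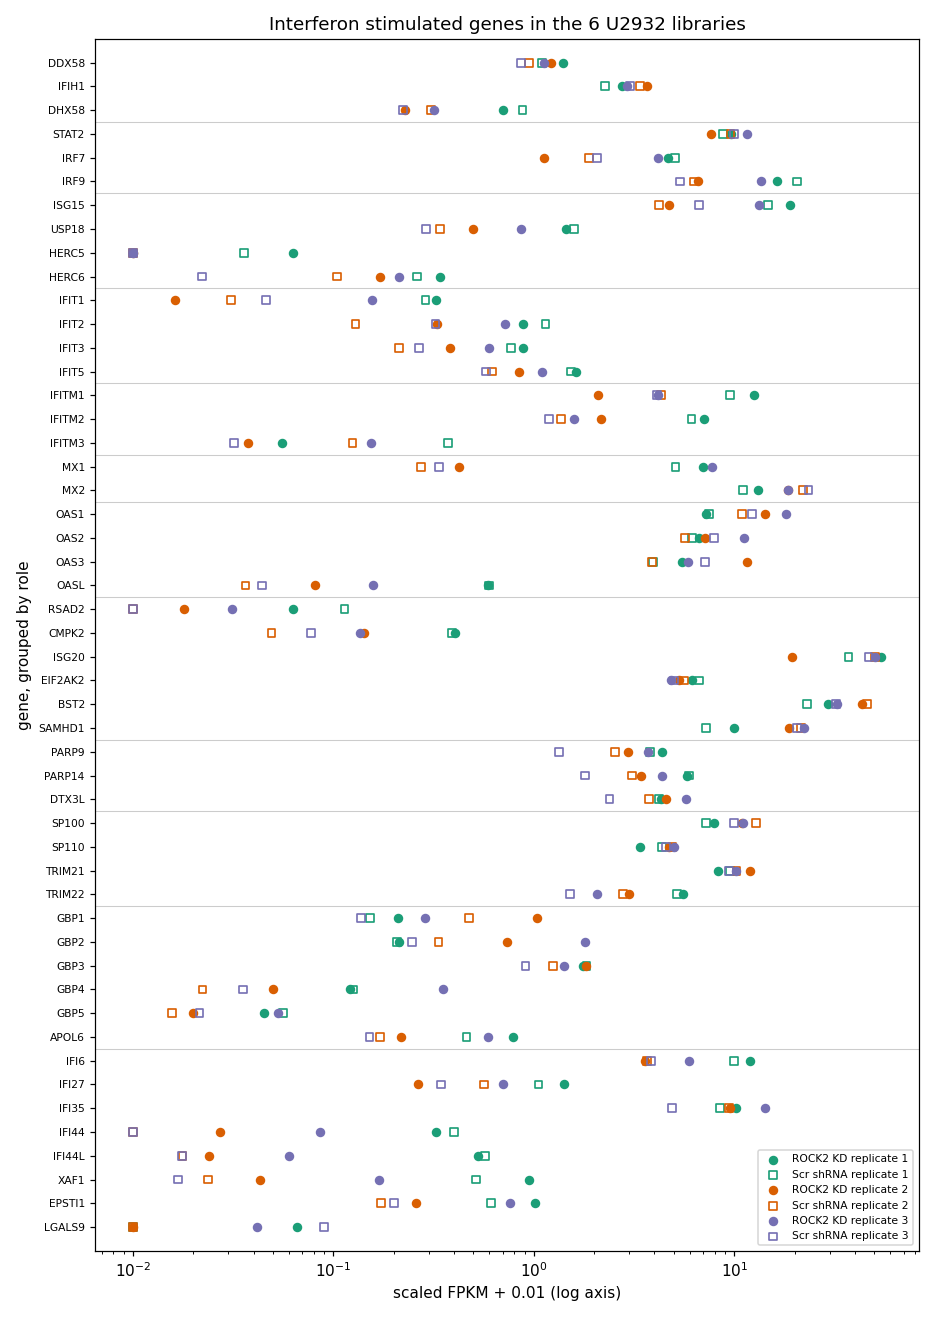
Scaled FPKM + 0.01 (log axis) of the 50 interferon stimulated genes, grouped by role, with filled circles for ROCK2 KD, open squares for Scr shRNA and 1 colour per replicate number. Levels ran from 0 (drawn at 0.01) to 54.1 for ISG20, and replicate 1 lies to the right of the others for many of the low genes.

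No interferon stimulated gene passed the test of ROCK2 KD against Scr shRNA, as no gene did among all 10526 (background 0.0%, limma, lowest adjusted p = 0.771, Benjamini-Hochberg). At an unadjusted p under 0.05, limma gave 576 of all genes, and 5 of the 28 tested members were higher in ROCK2 KD (ISG15, IFITM2, MX1, OAS2 and PARP9; background 3.24% of genes higher) and 0 lower (background 2.23%). The fitted difference was above 0 in 23 of 28, with a median of 0.20 against 0.00 over all genes tested. A correction of the replicate numbers by ComBat before limma called 295 genes (of 10526), none of them a member, and 13 of the 28 members had an unadjusted p under 0.05 there, as did 20.3% of all genes. Of the members then tested, 9 of 26 had an unadjusted p under 0.05 without replicate 1 (9.23% of all genes in that fit), 4 of 29 without replicate 2 (5.20%) and 1 of 29 without replicate 3 (3.90%), the last a share near that of all genes. In bulk RNA, a difference in the number of cells expressing a gene and a difference in RNA per cell cannot be told apart.

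Direction within pairs was more often upward. In each of the 3 pairs, 10 tested members had their higher level in ROCK2 KD (background 13.4% of genes) and 1, EIF2AK2, was lower in all 3 (background 11.8%). Below the filter, 8 of 22 had this direction throughout, against 7.85% of genes that did not reach the filter and were above 0 in a library. A gene at 0 in both libraries of a pair cannot count as higher, which lowers that background. Only 4 of the 50 members were at 0 in some library, so the 2 shares are not like for like. The levels are also low, such as 0.126 against 0.0677 for CMPK2 in pair 3. The 3 pairs differed in size. Median differences of the tested members were 0.15, 0.08 and 0.27 in pairs 1, 2 and 3, while the medians of all genes were 0.01, 0.00 and 0.00, and 20, 17 and 24 of 28 members were higher in ROCK2 KD, where the share over all genes tested was 51.6%, 50.8% and 50.5%. All 3 knockdown libraries were above all 3 controls in 3 tested members, DTX3L, IFI35 and DDX58 (background 1.08%), and below them in 0 (background 0.808%).

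Pair 3 held the large differences. A difference of at least 1 (at least 2-fold on this scale) upward was reached by 0 members in pair 1 (background 0.209%), by 1 in pair 2 (OAS3, background 0.361%) and by 4 in pair 3 (MX1, IFI35, IRF9 and PARP9, background 0.675%). Downward, only ISG20 in pair 2 reached that size. Counting all 50 members without a filter, 32, 33 and 44 had a higher level in ROCK2 KD in pairs 1, 2 and 3, where the share over 18785 genes above 0 in a library was 48.6%, 43.7% and 46.9%. Genes at 0 in both libraries of a pair count as not higher in these shares, which lowers them. Each pair has 1 library per group, so the difference between pairs has no residual to test it against and was not tested.

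**Figure D2:**
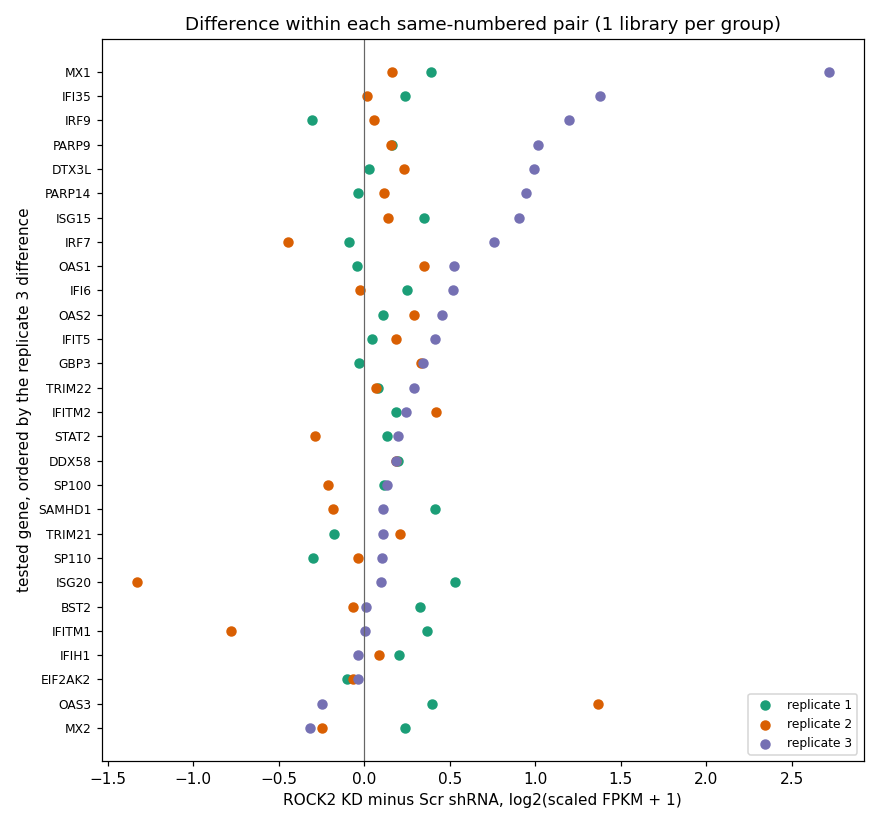
Difference ROCK2 KD minus Scr shRNA on the log2(scaled FPKM + 1) scale for the 28 tested members within each pair of equal replicate number, ordered by pair 3. The pair 3 points for MX1 (2.72), IFI35 (1.38), IRF9 (1.20) and PARP9 (1.02) lie beyond 1, while in pair 2 OAS3 (1.37) and ISG20 (-1.33) do.

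MX proteins are dynamin-like GTPases that trap viral nucleocapsids. MX1 (chr21:42791947-42841998, plus strand; this and all later gene spans are hg19, from GENCODE 44 lifted to it) measured 6.998, 0.416 and 7.72 in ROCK2 KD replicates 1 to 3 and 5.09, 0.264 and 0.326 in Scr shRNA. It was thus high in both replicate 1 libraries and in ROCK2 KD replicate 3, and low in the remaining 3, so the groups overlapped. Pair 3 differed 23.7-fold, pairs 1 and 2 by 1.37-fold and 1.57-fold, as ratios of scaled FPKM. Across pairs the difference was 1.09 (SE 0.45, 95% interval 0.03 to 2.15, adjusted p = 0.903, limma with Benjamini-Hochberg), and without replicate 3 it was 0.28. MX2 (chr21:42733926-42781320), its neighbour on the chromosome, measured 13.2, 18.5 and 18.6 in ROCK2 KD and 11.05, 22.1 and 23.5 in Scr shRNA, with a difference of -0.11 (SE 0.14). The high and low libraries of MX1 were not those of MX2, which was lowest in both replicate 1 libraries.

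The transcription factors of the list had the pattern of MX1 in part. IRF9 (chr14:24630443-24637252), the DNA-binding partner of STAT2, measured 16.4, 6.59 and 13.6 in ROCK2 KD and 20.5, 6.31 and 5.35 in Scr shRNA. IRF7 (chr11:612553-615983), which amplifies type I interferon production, measured 4.69, 1.11 and 4.16 in ROCK2 KD and 5.06, 1.88 and 2.05 in Scr shRNA. For both genes ROCK2 KD replicate 3 lay close to the replicate 1 libraries, whereas its control lay with replicate 2. Pair 3 differed by 1.20 for IRF9 and 0.76 for IRF7, while pair 1 gave -0.31 and -0.09, and the fitted differences of 0.31 (SE 0.26) and 0.07 (SE 0.22) became -0.12 and -0.26 without replicate 3. STAT2 (chr12:56735381-56753987) varied little, at 9.68, 7.66 and 11.6 in ROCK2 KD and 8.75, 9.59 and 9.99 in Scr shRNA (difference 0.01, SE 0.13, 95% interval -0.30 to 0.32).

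ISG15 (chr1:936518-949920), a ubiquitin-like protein that is both conjugated and secreted, measured 19.0, 4.73 and 13.3 in ROCK2 KD and 14.8, 4.20 and 6.66 in Scr shRNA. The knockdown library was the higher of each pair, by 0.35, 0.14 and 0.91, yet the groups overlapped. Both replicate 2 libraries were low, and Scr shRNA replicate 1 was above ROCK2 KD replicate 3. The ISG15 difference of 0.46 (SE 0.16, 95% interval 0.09 to 0.84) had the lowest adjusted p of the members (0.862, limma with Benjamini-Hochberg), and was 0.25 without replicate 3. The 3 listed enzymes of the ISG15 system did not reach the filter. USP18, which removes ISG15 and dampens receptor signalling, ranged from 0.280 to 1.58, the ligase HERC6 from 0.0120 to 0.332, and HERC5, the main ISG15 ligase, was listed at 0 in all libraries but the 2 of replicate 1.

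The next group lies together on chromosome 3. DTX3L, a ubiquitin ligase, and PARP9, its partner in the DNA damage response, are divergent neighbours (chr3:122283185-122294050 plus and chr3:122246771-122283424 minus) whose annotated spans overlap, and the sources used here do not say that strand was kept, so some reads cannot be assigned to one or the other. DTX3L measured 4.30, 4.58 and 5.72 in ROCK2 KD and 4.19, 3.75 and 2.38 in Scr shRNA, so that every knockdown value was above every control. PARP9 measured 4.37, 2.94 and 3.71 in ROCK2 KD against 3.80, 2.54 and 1.32. PARP14 (chr3:122399686-122449687), a mono-ADP-ribosyltransferase named with its values after they were seen, measured 5.78, 3.43 and 4.37 against 5.96, 3.08 and 1.79. In pair 3 the 3 genes were 2.404-fold, 2.80-fold and 2.44-fold higher in ROCK2 KD, and in each the Scr shRNA replicate 3 library was the lowest of all 6. Their fitted differences were 0.42 (SE 0.19), 0.45 (SE 0.19) and 0.34 (SE 0.20), none passed, and without replicate 3 they were 0.14, 0.16 and 0.04.

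IFI35 (chr17:41158757-41166473), an interferon-induced leucine zipper protein, measured 10.2, 9.52 and 14.3 in ROCK2 KD and 8.49, 9.40 and 4.89 in Scr shRNA. Groups did not overlap, but the knockdown value of pair 2 was above its control by only 0.02 on the log2 scale. Its difference was 0.54 (SE 0.25), and 0.13 without replicate 3. DDX58, the RNA sensor RIG-I, also had no overlap between groups, at 1.396, 1.20 and 1.11 in ROCK2 KD and 1.09, 0.938 and 0.858 in Scr shRNA, and it was chosen for mention after its values were seen. Here the 3 pairs were alike (0.20, 0.18 and 0.18), with a fitted difference of 0.19 (SE 0.11).

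**Figure D3:**
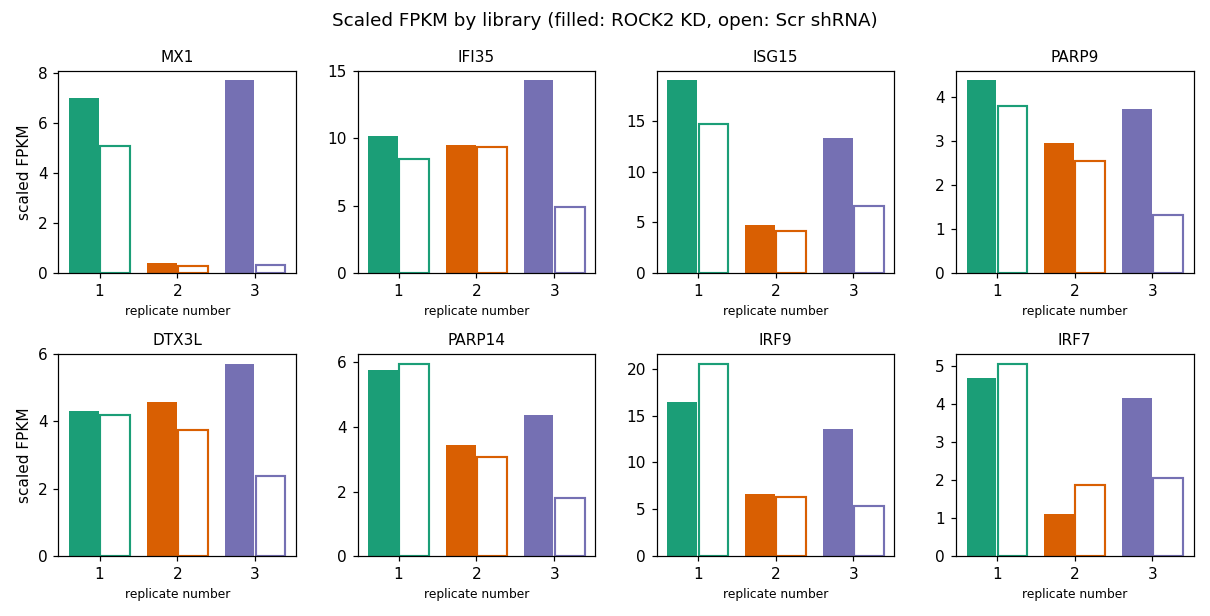
Scaled FPKM in each library for 8 members, with filled bars for ROCK2 KD and open bars for Scr shRNA by replicate number (1 library per bar, no error bar). The 8 are the tested members with the largest pair 3 difference, so the higher filled bar in replicate 3 is set by that choice, and MX1 and ISG15 are low in both replicate 2 libraries.

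The other sensors were IFIH1 (MDA5) and DHX58 (LGP2). IFIH1 measured 2.75, 3.65 and 2.91 in ROCK2 KD and 2.25, 3.37 and 3.01 in Scr shRNA, and the groups overlapped (difference 0.09, SE 0.12, 0.03 without replicate 1 and 0.15 without replicate 3). DHX58 stayed below 1, from 0.213 to 0.869, with both replicate 1 libraries highest.

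OAS enzymes make 2′-5′-linked oligoadenylates, which activate RNase L. OAS1 measured 7.26, 14.2 and 18.2 in ROCK2 KD and 7.504, 10.9 and 12.3 in Scr shRNA (difference 0.28, SE 0.14, 0.45 without replicate 1 and 0.16 without replicate 3). OAS2 measured 6.70, 7.18 and 11.2 against 6.13, 5.68 and 7.94 and was the higher in each pair, with a difference of 0.28 (SE 0.12). OAS3, picked after its values were seen, was unlike its neighbours, since ROCK2 KD replicate 2 was the highest library at 11.6 against 3.89 in its control, and the other 4 lay between 3.91 and 7.16 (difference 0.51, SE 0.27, 0.07 without replicate 2 and 0.88 without replicate 3). OASL, which lacks synthetase activity, ranged from 0.0265 to 0.587.

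Members of the IFIT family bind foreign RNA and restrain translation. Only IFIT5 (chr10:91174325-91181362) passed the filter, at 1.61, 0.831 and 1.09 in ROCK2 KD and 1.53, 0.608 and 0.568 in Scr shRNA, the knockdown library being higher in each pair (difference 0.22, SE 0.13, and 0.12 without replicate 3). IFIT1, IFIT2 and IFIT3 ranged over 0.0063 to 0.317, 0.119 to 1.14 and 0.202 to 0.876, and all 3 were higher in ROCK2 KD in pair 3, while IFIT2 was lower in pair 1 (-0.19) and IFIT1 in pair 2 (-0.02).

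IFITM proteins block fusion of enveloped viruses, and their sequences are so alike that 50-base reads may be shared between them. IFITM1 (chr11:310041-315272) measured 12.6, 2.08 and 4.14 in ROCK2 KD and 9.49, 4.29 and 4.12 in Scr shRNA, with a difference of -0.13 (SE 0.21) that depended on pair 2 and was 0.19 without it. IFITM2 (chr11:303655-309397) measured 7.08, 2.16 and 1.58 against 6.12, 1.36 and 1.18, higher in each pair (difference 0.28, SE 0.12). IFITM3 was between 0.0221 and 0.365.

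Among other antiviral effectors, ISG20, an exonuclease of single-stranded RNA, had the highest level of all members. It measured 54.1, 19.5 and 50.1 in ROCK2 KD and 37.2, 50.5 and 46.8 in Scr shRNA, so 1 library, ROCK2 KD replicate 2, lay well below the other 5. The difference of -0.23 (SE 0.31) was 0.31 without replicate 2. SAMHD1, a dNTP triphosphohydrolase, measured 9.92, 18.8 and 22.2 in ROCK2 KD and 7.21, 21.5 and 20.5 in Scr shRNA. BST2 (tetherin), which holds budding virions at the surface, lay between 23.1 and 45.8, and EIF2AK2 (PKR), the RNA-activated kinase that halts translation, between 4.85 and 6.67. RSAD2 (viperin) and its neighbour CMPK2, whose annotated spans overlap, stayed at or below 0.104 and 0.395.

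Nuclear body and TRIM genes had condition differences between -0.08 (SP110) and 0.15 (TRIM22, 0.08 without replicate 3), none of which passed. SP100 measured 7.88, 10.95 and 11.1 in ROCK2 KD and 7.21, 12.8 and 10.0 in Scr shRNA (difference 0.01, SE 0.12). SP110 lay between 3.36 and 5.00, TRIM21, a cytosolic antibody receptor, between 8.29 and 12.001, and TRIM22 between 1.504 and 5.53.

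Guanylate-binding proteins are GTPases induced above all by interferon gamma. GBP3, the only 1 of 5 tested, measured 1.76, 1.81 and 1.41 in ROCK2 KD and 1.82, 1.24 and 0.9005 in Scr shRNA (difference 0.21, SE 0.13, and 0.36 without replicate 1). GBP2 (chr1:89571815-89616139) did not reach the filter but measured 1.80 in ROCK2 KD replicate 3 against 0.197 to 0.725 in the other 5 libraries, and 7.57-fold its pair 3 control, a gene named after its values were seen. GBP1 was highest in ROCK2 KD replicate 2 (1.03), GBP4 in ROCK2 KD replicate 3 (0.345), and GBP5 did not exceed 0.0460. APOL6, an apolipoprotein L that promotes cell death, ranged from 0.142 to 0.775. All 6 genes of this group were higher in ROCK2 KD in pairs 2 and 3, and 3 of the 6 were in pair 1.

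Of the remaining IFI genes, IFI6, a mitochondrial and endoplasmic reticulum protein, measured 11.98, 3.59 and 5.93 in ROCK2 KD and 9.93, 3.66 and 3.82 in Scr shRNA (difference 0.25, SE 0.14, and 0.12 without replicate 3). IFI27, IFI44, IFI44L, XAF1, EPSTI1 and LGALS9 did not reach the filter. IFI44L, XAF1 and EPSTI1 are given as examples picked after their values were seen. IFI44L measured 0.514 and 0.563 in replicate 1 and at most 0.0498 in the other 4 libraries. XAF1 did likewise, at 0.940 and 0.503 against at most 0.158. EPSTI1 reached 0.7496 in ROCK2 KD replicate 3 against 0.191 in its control.

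The wider pathway was read from a list of 33 ligands, receptors, kinases, transcription factors, sensors and inhibitors, 31 of them matched by symbol and 24 tested. None passed across all genes, and 4 were higher at an unadjusted p under 0.05 (IRF1, JAK2 and TLR7 among them; 3.24% of all genes) with 0 lower (2.23% of all genes). IRF1, an early transcription factor of the response, measured 7.87, 8.53 and 11.6 against 5.99, 7.80 and 5.71, and TLR7, an endosomal RNA sensor, 1.13, 2.67 and 5.34 against 0.845, 2.09 and 1.67. Of the 6 interferon genes on that list, 4 were matched by symbol and were at or near 0. IFNA1 and IFNL1 were listed at 0 in all libraries, IFNB1 was at most 0.201 and IFNG at most 0.160. IFNA2 and IFNE had no match, and other interferon genes were not looked up. The 6 tested receptor subunits had differences between 0.07 (IFNAR1) and 0.24 (IFNLR1).

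The second question was how the members differed between replicate numbers irrespective of the shRNA. An F test of the replicate number (limma, condition as a covariate, Benjamini-Hochberg) called 16 of 28 members, against 5726 of 10526 genes (54.4%), so the share of members was near the background. Without replicate 1 the F test called 1 of 26 members (ISG15) and 1183 of 10613 genes (11.1%). Directions were less alike. In replicate 2 against 1, 5 members were higher (background 32.8%) and 10 lower (background 14.2%). In replicate 3 against 1, 5 were higher (background 36.8%) and 8 lower (background 14.6%). In replicate 3 against 2, only ISG15 was higher (background 3.36%) and 0 lower (background 2.74%). That ISG15 call was lost with no filter (adjusted p = 0.227) and with no condition term (0.101, limma with Benjamini-Hochberg). Medians of all genes were themselves shifted by 0.18 for replicate 2 minus 1 and 0.22 for replicate 3 minus 1, and 19 and 20 of the 28 members lay below these medians.

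That split depended on the scaling of the libraries. With FPKM as deposited the median of all genes moved to 0.71 and 0.70, and the members called became 12 higher and 6 lower in replicate 2 (68.7% and 4.58% of all genes), and 10 higher and 4 lower in replicate 3 (67.1% and 5.98% of all genes). With a median ratio over genes of at least 1 FPKM, an alternative chosen after seeing the data, medians were -0.03 and -0.02 and the calls 3 higher and 11 lower in replicate 2 (20.8% and 22.9% of all genes), and 2 higher and 12 lower in replicate 3 (21.2% and 23.0% of all genes). Relative to the median of all genes, 19 and 20 of 28 members were below in that setting also, and 19 and 19 with FPKM as deposited. With FPKM as deposited, 4 genes lost their lower call in replicate 2, IRF9 (-0.80), IFIT5 (-0.25), PARP14 (-0.18) and TRIM22 (-0.21), and 4 in replicate 3, IRF9 (-0.49), IFIT5 (-0.20), PARP14 (-0.38) and ISG15 (-0.25), and ISG15 lost its call between replicates 3 and 2 (0.89). With the median ratio over genes of at least 1 FPKM, higher calls were lost by MX2 (0.48 and 0.48) and SP100 (0.38 and 0.18) in both contrasts and by OAS2 in replicate 3 (0.25).

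Genes lower outside replicate 1 included MX1, ISG15, IFITM1, IFITM2, IRF7, IRF9, IFI6, IFIT5, PARP14 and TRIM22. MX1 differed by -2.38 (SE 0.55, adjusted p = 0.0116) in replicate 2 minus 1 and by -1.04 (SE 0.55, adjusted p = 0.154) in replicate 3 minus 1. The second value averages 1 high and 1 low library. IFITM2 differed by similar amounts in both contrasts, at -1.47 and -1.68 (SE 0.14, adjusted p = 6.7e-04 and 3.3e-04, limma with Benjamini-Hochberg). ISG15 differed by -1.70 and -0.76 (SE 0.20), IFITM1 by -1.56 and -1.22 (SE 0.26), IFI6 by -1.37 and -1.04 (SE 0.17) and IRF9 by -1.38 and -1.01 (SE 0.32), and all of these passed. In the fit with no filter, the calls of MX1 in replicate 2 (adjusted p = 0.0825), IRF7 in replicate 2 (0.0633), IRF9 in both contrasts (0.0771 and 0.143), ISG15 in replicate 3 (0.0698) and IFITM1 in replicate 3 (0.0565) were lost (limma with Benjamini-Hochberg), and that of ISG15 in replicate 3 also with no condition term (0.0516). PARP14 lost its calls in both contrasts with no filter (0.159 and 0.110). Its replicate 2 call was also lost with a pseudocount of 0.1 (0.0664) and with no condition term (0.0710). IRF7 passed in replicate 2 (-1.25, SE 0.27) and not in replicate 3 (-0.57, SE 0.27). Less the median of all genes, ISG15 stood at -1.88 and -0.98, and IFITM2 at -1.65 and -1.90.

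Higher outside replicate 1 were SAMHD1, OAS1, MX2 and SP100 in both contrasts, BST2 in replicate 2 and OAS2 in replicate 3. Some of these calls were also lost in the fit with no filter (limma with Benjamini-Hochberg). They were OAS1 (adjusted p = 0.0515) and MX2 (0.0505) in replicate 2, and SP100 (0.0752) and OAS2 (0.0548) in replicate 3. In replicate 3, OAS2 also lost its call with no condition term (0.0535), and SP100 with median ratio scaling (0.0541). SAMHD1 differed by 1.16 and 1.24 (SE 0.17, adjusted p = 0.00196 and 0.00127, limma with Benjamini-Hochberg), OAS1 by 0.69 and 0.93 (SE 0.17) and MX2 by 0.70 and 0.74 (SE 0.17). MX1 and MX2, which lie side by side, thus moved in opposite directions between replicates 1 and 2. ISG15 and OAS1 did so as well. Of the genes printed with their promoters, BST2 was the one higher in replicate 2.

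**Figure D4:**
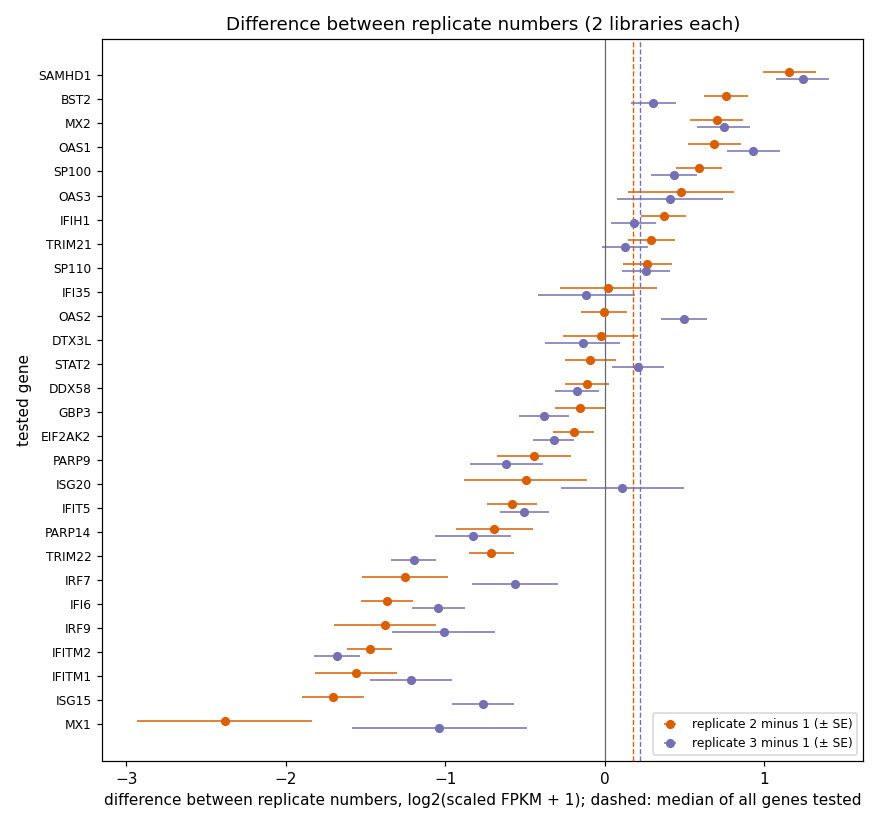
Difference between replicate numbers (points, with SE as lines) on the log2(scaled FPKM + 1) scale for the 28 tested members, replicate 2 minus 1 and replicate 3 minus 1, with the medians of all genes tested as dashed lines. SAMHD1 is highest (1.16 and 1.24) and MX1 lowest in replicate 2 minus 1 (-2.38).

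By level alone, both replicate 1 libraries were above the other 4 in 11 of 28 tested members (background 19.1%) and below them in 7 (background 42.9%). Below the filter, 14 of 22 members had both replicate 1 libraries on top (background 41.6%) and 1, GBP2, had them lowest (background 2.76%). With no filter, which brings all 50 members and 18785 genes into the fit, the F test called 16 of 50 members (31.2% of genes). Replicate 2 against 1 then gave 4 members higher (15.7% of genes) and 17 lower (16.0%), and replicate 3 against 1 gave 3 higher (17.1%) and 14 lower (16.8%). The B-cell markers moved with the replicate number too, their sum being lowest in replicate 1, and the FPKM sums were lowest there. The part of either in these differences was not tested.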

How the data were processed

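Gene-level FPKM of 6 RNA-seq libraries were deposited by the authors, 1 text file per library. The authors prepared Nextera libraries from total RNA, aligned 50-base read pairs to hg19 with STAR and computed FPKM with Cufflinks. Samples were grouped by their labels. From the files, each library was divided by a factor from log ratios to a reference library, averaged after removing the extreme 0.3 of ratios and 0.05 of levels, the pseudocount was 1, and genes with at least 1 FPKM in at least 3 libraries were fitted with limma 3.58.1 in R 4.3.3 (replicate number as a block plus condition, mean-variance trend, two-sided, Benjamini-Hochberg over all genes, threshold 0.05). The study's methods correct for replicate numbers, which is why they enter the fit. Deviations from the group means were correlated between libraries of equal number (r = 0.853, 0.785 and 0.741, other pairs at most 0.0541). Simulated data had 200 of 10526 genes changed by 1 on the log2 scale. The condition test recovered 92.3% of these (3.84% of calls false) and the replicate test 76.0% (5.48% false). Recovery of a change that differs in size between pairs was not tested. MX1, at 0.39, 0.16 and 2.72 in pairs 1 to 3, had a fitted difference of 1.09 (SE 0.45) and was not called.

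The members and gene lists were chosen with earlier results of these data known. Values per library are given for the 8 tested members with the largest condition difference of 1 direction in all pairs, the 8 with the widest range between replicate numbers, the transcription factors and the highest member of each role, and for a few others named as picked after their values were seen. FPKM carry no total depth, so no counting intervals are given. Alternatives were another pseudocount, filters, scalings, no trend, no block, ComBat, and leaving out each replicate number. Gene spans come from GENCODE 44 lifted to GRCh37, and promoters, matched for 38 members and not for 12, from RefSeq on GRCh38.p14. Results for items withheld from the text are not reported here.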

Additional observations from a re-analysis of the deposited data

How the results depend on the processing

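Members called for ROCK2 KD against Scr shRNA stayed at 0 under every alternative run, and the replicate block changed no member's call. Without the replicate block 0 genes were called, with 25 at an unadjusted p under 0.05 and none of them a member. Over all genes, ComBat followed by no block called 295, and leaving out a replicate number called between 0 and 35 (35 without replicate 1, 0 without replicate 2 and 4 without replicate 3). Among all 28 tested members, 11 had a difference whose sign depended on 1 replicate number, and none of these was called. Leaving each out in turn, they ran from -0.07379 (without replicate 3) to 0.16 (without replicate 2) for STAT2, from -0.26 (without 3) to 0.33 (without 2) for IRF7, from -0.12 (without 3) to 0.64 (without 1) for IRF9, from -0.39 (without 1) to 0.19 (without 2) for IFITM1, from -0.28 (without 1) to 0.0018 (without 3) for MX2, from -0.61 (without 1) to 0.31 (without 2) for ISG20, from -0.02937 (without 1) to 0.26 (without 2) for SAMHD1, from -0.04276 (without 3) to 0.12 (without 2) for SP100, from -0.02366 (without 1) to 0.17 (without 2) for BST2, from -0.16 (without 3) to 0.0403 (without 1) for SP110, and from -0.03336 (without 2) to 0.17 (without 1) for TRIM21, with STAT2 and SP100 also below 0 without replicate 1 (-0.04 and -0.03). MX1 and IFIT5 have no value without replicate 1, since they then miss the filter. For the replicate numbers, leaving out one gave between 1183 and 5626 genes and between 1 and 17 members called, the lowest in both without replicate 1 (1 of 26 members and 11.1% of genes without replicate 1, 14 of 29 and 52.1% without replicate 2, 17 of 29 and 50.7% without replicate 3). Of the 29 member contrasts called between replicate numbers, 18 lost their call under at least 1 alternative and none changed direction. With FPKM as deposited, the F test called 8113 genes. Total depth is not known from FPKM.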
